A study of Mus musculus with 87 samples.

Results

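The transition from DNA replication to mitosis in the regenerating mouse liver was examined between 2 groups of livers, one collected 36 h after partial hepatectomy (PH) and one collected 44 h after it. The members were chosen by the labels alone and are the 6 livers of the 36 h group (X36) and the 3 livers of the 44 h group (X44), 9 of the 80 libraries analysed and of the 87 samples labelled. PH is the surgical removal of most of the liver, after which the remaining hepatocytes leave quiescence and divide. Poly(A)-selected RNA from each liver was sequenced, and the deposited values are log2 RPKM, a read density scaled to the length of the transcript and the size of the library, for 37991 genes.

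All mice were C57BL/6 males of 12 to 14 weeks that had been kept for 2 weeks with food offered in the dark period alone, from Zeitgeber time (ZT) 12 to lights-on. No mouse carried an engineered allele. Surgery took place at ZT2, so that X36 livers were taken at ZT14, 2 h into darkness and feeding, and X44 livers at ZT22, near the end of the feeding period. The hours since PH and the hour of the day therefore change together in this comparison and cannot be told apart by it. Sham-operated livers taken 10 h after surgery (S10, ZT12, 3 livers) and 20 h after it (S20, ZT22, 3 livers) are set beside it for the hour of the day. S10 livers were taken as food was about to be offered and X36 livers after 2 h of access to it, so the sham pair does not match the PH pair in feeding. In the paper's clustering, S10 livers group with early PH livers and S20 livers with resting ones. The sham pair therefore also spans the end of the early response to surgery and does not isolate the hour of the day. In whole livers, fewer cells of a type and less RNA per cell cannot be told apart. There was no spike-in, so every level is relative to the total of its own library.

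Hepatocytes enter the cell cycle by raising cyclin D1 and cyclin E, whose kinases release the E2F transcription factors. E2F targets supply the factors that load the MCM helicase on replication origins (licensing), copy the DNA and make nucleotides. A later wave is switched on by the MuvB complex with B-Myb and by FoxM1, and it contains cyclin B, the mitotic kinases, the spindle, the kinetochores and the machinery of cytokinesis. Genes of this second wave often carry the CCAAT box and the cell cycle genes homology region (CHR) in their promoters. In the liver, the circadian clock runs beside this program, with Arntl (Bmal1) as its activator and the Per, Cry and Nr1d genes as repressors.

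Stretches of promoter are shown for 5 cell cycle genes, picked because they hold the motifs searched. They cover 150 bases before the start of transcription and are given 5′ to 3′ on the gene's own strand, from RefSeq promoters on the build GRCm38.p6. The E2F and CHR motifs searched are in capitals. CCAAT boxes, also searched, are left in lower case, among them those of Orc1 and Cdk1. In Cdc6 and Orc1, 2 licensing genes that fell between 36 and 44 h, the capitals mark an E2F motif (TTTCCCGC and TTTCGCGC, both read from the opposite strand). They lie at chr11:98908001-98908150 (+) for Cdc6 and chr4:108579304-108579453 (+) for Orc1.
Cdc6: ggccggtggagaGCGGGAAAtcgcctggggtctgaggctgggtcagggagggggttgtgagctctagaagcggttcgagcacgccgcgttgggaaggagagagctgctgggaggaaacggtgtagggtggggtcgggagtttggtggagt
Orc1: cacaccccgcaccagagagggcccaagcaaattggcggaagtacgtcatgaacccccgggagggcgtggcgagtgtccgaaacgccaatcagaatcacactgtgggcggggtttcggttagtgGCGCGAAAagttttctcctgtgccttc
Cdc20 and Ube2c, 2 genes of the anaphase-promoting complex that rose, are shown for the CHR motif TTTGAA, at chr4:118437344-118437493 (-) and chr2:164769779-164769928 (+). In Ube2c it is read from the opposite strand, so that the capitals there spell TTCAAA. The CCAAT boxes of both are left in lower case. The same 150 bases of Plk1, Nusap1 and Ccnb1 hold no CHR motif of these letters, and those of Cdt1 hold no E2F motif. Beyond the start of transcription, Plk1 held the CHR motif at position 31 and Cdt1 an E2F motif (TTTGGCGC) at position 33. Both places lie inside the longer windows used for the motif shares given below.
Cdc20: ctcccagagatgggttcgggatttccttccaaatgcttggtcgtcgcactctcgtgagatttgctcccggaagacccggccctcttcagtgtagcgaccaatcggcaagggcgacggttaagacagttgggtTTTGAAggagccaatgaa
Ube2c: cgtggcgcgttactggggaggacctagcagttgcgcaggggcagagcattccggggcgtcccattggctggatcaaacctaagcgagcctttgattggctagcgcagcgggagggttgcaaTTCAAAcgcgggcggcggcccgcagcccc
Cdk1, the kinase that drives entry into mitosis, held both kinds of motif at chr10:69352913-69353062 (-), an E2F motif (TTTCGCGC) and the CHR motif at 2 places.
Cdk1: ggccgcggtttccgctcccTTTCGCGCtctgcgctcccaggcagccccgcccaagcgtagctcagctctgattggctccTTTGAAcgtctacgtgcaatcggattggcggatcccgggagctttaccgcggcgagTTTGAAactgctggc

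The libraries held an estimated 21.3 to 29.9 M (mega) reads in X36 and 25.3 to 28.7 M reads in X44. Alb, the hepatocyte albumin gene, was among the most abundant transcripts of both groups, at 14.18 to 15.36 (log2 RPKM) in X36 and 14.32 to 15.06 in X44. One library stood apart. The mean log2(RPKM + 0.25) of the 16 origin licensing genes was 2.33 in X36 replicate 2 and 2.93 to 3.29 in the other 5 X36 livers, and among the named genes, 10 of the 11 X36 values that lay far from the other livers belong to it. The X36 livers were prepared in 2 experimental periods, the X44 livers in the first of them alone and the S10 and S20 livers in the second alone, and the sources used here do not name the X36 replicates of each period. A difference between X44 and the sham livers therefore cannot be told apart from one between the periods. X36 replicates 1 to 3 and 4 to 6 differed from each other in 1036 of 15396 genes (6.73%), 910 of them higher in replicates 1 to 3. Each result was therefore also computed against either set of 3 X36 livers alone.

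Between 36 and 44 h, 1466 of the 15396 genes tested (9.52%) passed the test, an adjusted p below 0.05 with a log2 fold change of at least 0.5 in size. Of these, 997 (6.48% of the genes tested) were higher in X44 and 469 (3.05%) were lower, with 281 rises and 140 falls beyond 1 on the log2 scale. The levels of X44 and X36 livers did not overlap for 1109 of the 1466, beside 14.3% of all genes tested. Against X36 replicates 1 to 3 alone 1241 genes passed, and against replicates 4 to 6 alone 2223 passed. A fit on the X36 and X44 livers alone called 858, of which 818 are among the 1466. Both sets of 3 X36 livers called 773 of the 1466 genes in the same direction (5.02% of the genes tested). The median of all log2 fold changes was 0.07. Scaling every library to the same median moved all changes down by 0.13 and turned the division of the calls from 68.0% higher to 43.4% higher, with 639 higher and 834 lower, so that a small rise or fall has no fixed sign. None of the 91 named genes that passed the test changed sign under this scaling.

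**Figure D1:**
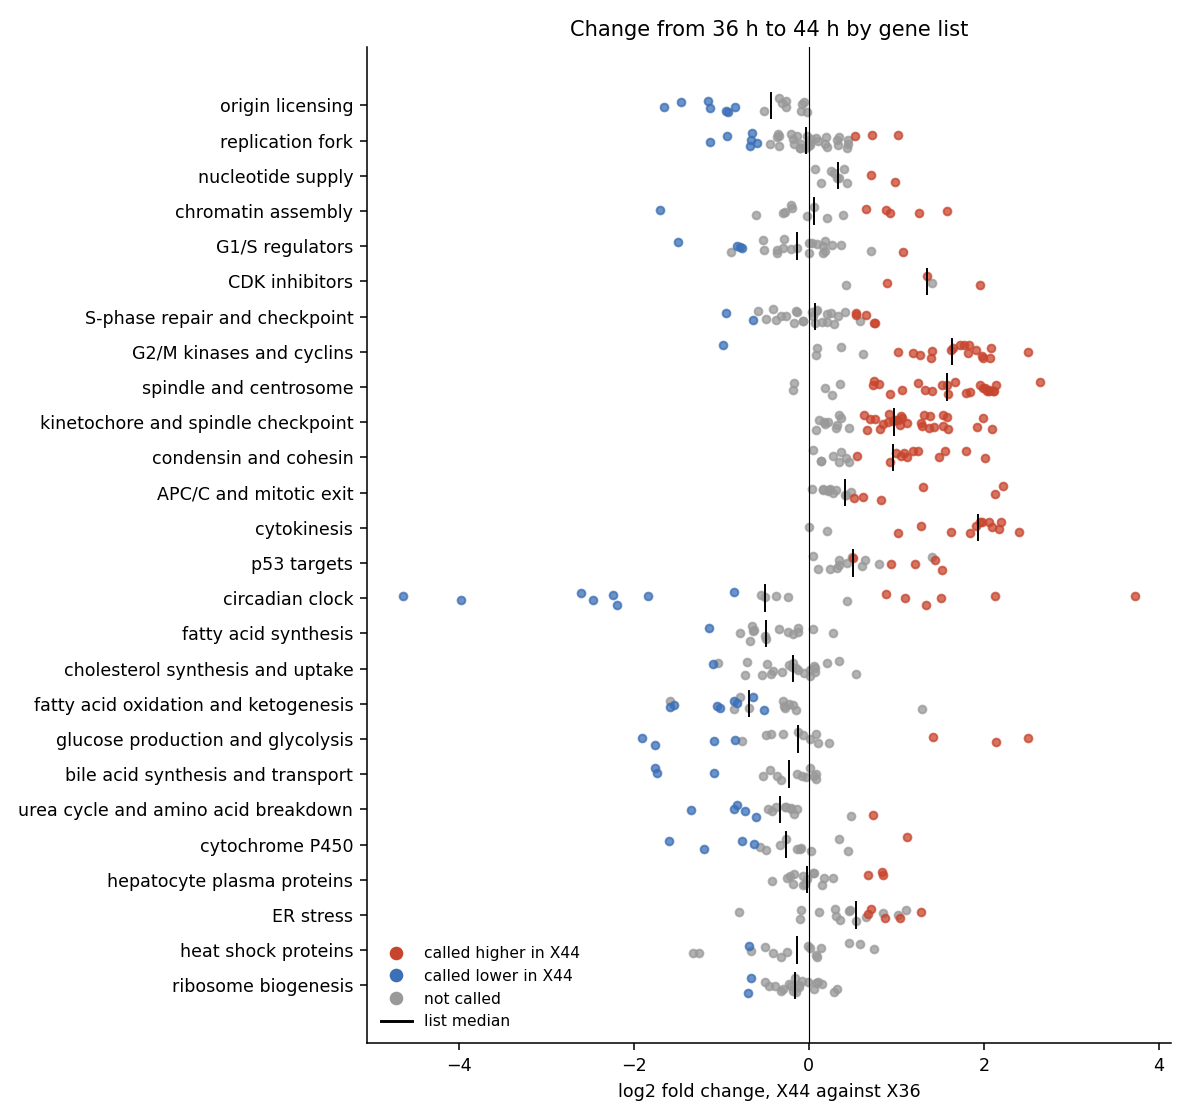
Log2 fold change of X44 against X36 (horizontal axis) for each tested member of 26 gene lists (rows), colored by call, with the list median as a bar. The medians of the lists from G2/M kinases to cytokinesis lie to the right of 0, that of origin licensing lies to the left, and the clock genes spread from −4.63 to 3.72.

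Several licensing genes fell between 36 and 44 h. Of the 16 origin licensing genes tested, 7 fell, none rose and 9 did not pass the test, with a median log2 fold change of −0.43 beside 0.07 over all genes. Cdc6 and Cdt1, which together load the MCM helicase onto origins, fell the most. The level of Cdc6 (chromosome 11, 98769115 to 98785254, + strand, mm9) was 0.31, −0.20 and 0.23 (log2 RPKM) in the 3 X44 livers and 0.42, 2.27 and 2.53 at the lowest, median and highest of the 6 X36 livers, a log2 fold change of −1.66 ± 0.22 (SE, adjusted p = 1.4e-08). The groups did not overlap, although X36 replicate 2, the lowest of X36, stood just above the highest X44 liver. Without that library the fall of Cdc6 was −1.94 and the list's median was −0.65, with 7 genes still called. The fit on X36 and X44 alone called 3 licensing genes lower.

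Cdt1 stood at 2.45, 2.04 and 2.48 in X44 and at 2.92, 3.92 and 4.34 in X36, and fell by 1.46 ± 0.28 on the log2 scale (adjusted p = 9.9e-05). Orc1, the largest subunit of the origin recognition complex, fell by 1.15 ± 0.14 (adjusted p = 1.3e-09), from a median of −0.24 in X36 to between −2.34 and −1.94 in X44. The other 4 genes that passed were Mcm4 (−1.13 ± 0.28), Mcm3 (−0.95 ± 0.31) and Mcm2 (−0.84 ± 0.28), subunits of the helicase, and Mcm10 (−0.93 ± 0.32), which helps to start it. Of these 4, Mcm10 alone had no overlap between the groups. All 4 were called against X36 replicates 4 to 6 and none of them against replicates 1 to 3. Mcm2, Mcm3 and Mcm10 lost their calls when single libraries were left out, so that 4 licensing genes were called without X44 replicate 1, 2 or 3 and without X36 replicate 3 or 6. Mcm5, at 3.98 to 4.27 in X44 and 3.37 to 5.22 in X36, did not pass (−0.51 ± 0.37, adjusted p = 0.41). Orc3 and Orc5, core subunits of the recognition complex, changed least, by −0.05 and −0.02. Gmnn, the inhibitor of Cdt1, changed by −0.26 and did not pass.

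An E2F motif in any of 3 forms (TTTCGCGC, TTTGGCGC or TTTCCCGC, either strand) was held by 8 of 18 promoter windows of 14 licensing genes (44.4%) and by 1.84% of all 32851 windows of the table, each from 250 bases before the start to 50 after it. Among the windows of tested genes the share was 3.41%, although 68.0% of those genes had a window. The CHR motif TTTGAA was held by 1 of these 18 windows (5.56%). Windows of the same gene can overlap and are not separate observations. Of the replication fork genes 73.7% had a window, too few for the share in that list to be read.

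The genes of the replication fork did not move as a block. Of 38 tested, 3 rose, 6 fell and 29 did not pass, and the median was −0.03. In the fit on X36 and X44 alone 1 rose and none fell. Timeless, which protects stalled forks, had 1.23, 0.73 and 0.78 in X44 against 0.90, 2.31 and 2.57 at the lowest, median and highest of X36 and fell by 1.13 ± 0.19 (adjusted p = 1.0e-05). Its groups overlapped through X36 replicate 2, and the fall was −1.35 without it. Dscc1, a subunit of an alternative clamp loader, fell by 0.93 ± 0.12, with no overlap. Wdhd1, Rfc3, Cdc45 and Pold1 fell by between 0.60 and 0.67. In the other direction, Dbf4, the activating subunit of the Cdc7 kinase that fires origins, rose from a median of 1.18 in X36 to 2.50, 2.29 and 1.96 in the X44 livers (1.02 ± 0.17, adjusted p = 7.3e-06). Rfc5 (0.72 ± 0.18) and Gins2 (0.53 ± 0.19) also rose, but neither passed without X44 replicate 1. Between 2 (without X44 replicate 2) and 8 (without X36 replicate 2) fork genes were called lower when single libraries were left out. Between 1 (without X44 replicate 1) and 5 (without X44 replicate 3) were called higher. Pcna, the sliding clamp, was at 5.39, 5.47 and 5.00 in X44 and 4.62, 5.42 and 5.94 in X36 and did not pass (−0.13 ± 0.18, adjusted p = 0.72).

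Of 10 enzymes of nucleotide supply tested, 2 rose and none fell, with a median of 0.33. Over all genes tested, 6.48% were called higher and 3.05% lower, so the lack of a fall among 10 is near the share of all genes. Scaling to the same median left 1 rise and a list median of 0.20. Neither rise passed in the fit on X36 and X44 alone. Tyms, thymidylate synthase, rose from a median of 1.57 to 3.07, 2.83 and 2.44, without overlap (0.98 ± 0.16, adjusted p = 5.1e-06). Tk1, thymidine kinase, rose by 0.71 ± 0.23 (adjusted p = 0.025), a call lost without X44 replicate 1, X44 replicate 2 or X36 replicate 4. In the sham livers Tk1 rose by 2.29 ± 0.27 from S10 to S20, and the 2 changes differed (adjusted p = 0.00099). The ribonucleotide reductase genes Rrm1 (0.07) and Rrm2 (0.40 ± 0.39) did not pass, and Rrm2 ranged from 4.91 to 6.04 in X44 and from 4.11 to 5.92 in X36.

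Of 15 chromatin assembly genes, 5 rose, 1 fell and 9 did not pass. Uhrf1, which brings DNA methylation to the new strand, fell from 3.09, 4.27 and 4.67 at the lowest, median and highest of X36 to 2.54, 2.26 and 2.38 in X44 (−1.71 ± 0.28, adjusted p = 4.5e-06). It was the only one of the list called lower, while Hells, a remodeler that acts in the same maintenance of methylation, did not pass (−0.60, adjusted p = 0.076). The 5 that rose were Hmgb2 (1.57 ± 0.24), H2afx (1.26 ± 0.23), H2afz (0.93 ± 0.16), Hmgn2 (0.88) and Lmnb1 (0.65), which encode chromatin and nuclear lamina proteins. The median of the list was 0.06, and −0.07 after scaling to the same median, where 5 were called higher and 2 lower. Without X36 replicate 2, 2 were also called lower. The fit on X36 and X44 alone called 2 higher and 1 lower. Chaf1a, Chaf1b, Asf1a and Asf1b, the chaperones that place histones behind the fork, lay between −0.30 and 0.20 and did not pass.

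Repair genes active in S phase moved in both directions, 5 higher and 2 lower of 31, beside 6.48% higher and 3.05% lower of all genes tested. The list's median of 0.07 became −0.06 after median scaling, where 3 were called higher and 6 lower. Msh6 (−0.94 ± 0.15), which recognizes mismatches, fell without overlap. Fanci (0.75 ± 0.18), Fanca, Fancd2, Eme1 (0.75 ± 0.14) and Gen1 rose, genes of crosslink repair and of the resolution of joined chromosomes. Without X44 replicate 1, 1 was called higher and 5 lower, and without X36 replicate 2, 3 were called higher and 5 lower. The fit on X36 and X44 alone called none higher and 2 lower.

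**Figure D2:**
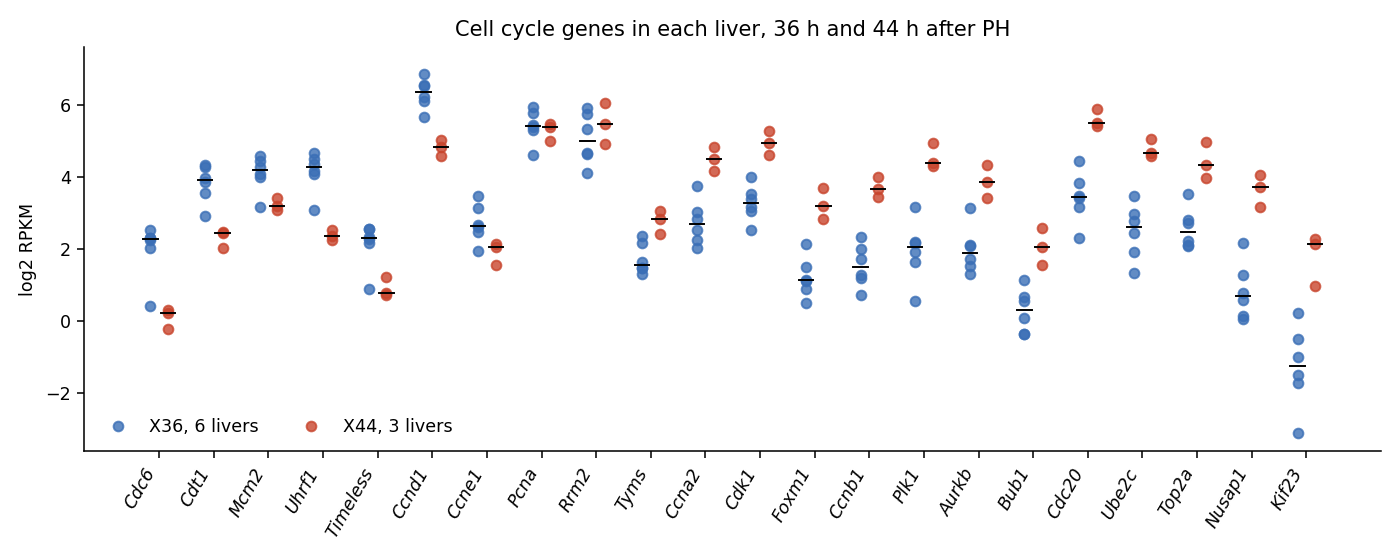
Log2 RPKM (vertical axis) of 22 cell cycle genes (horizontal axis) in each X36 liver (blue) and X44 liver (red), with the median of each group as a bar. Red points lie below blue points for Cdc6, Cdt1, Uhrf1 and Ccnd1, among them for Pcna and Rrm2, and above them from Ccna2 to Kif23.

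Cyclin D1 and the E cyclins fell. Of 25 G1/S regulators tested, 4 fell, 1 rose and 20 did not pass, with a median of −0.14. Of the 4 falls, 2 were called against both sets of 3 X36 livers, and in the fit on X36 and X44 alone 3 genes fell and 2 rose. Ccnd1, cyclin D1, was at 5.02, 4.58 and 4.85 in X44 and at 5.66, 6.37 and 6.87 in X36, a 2.82-fold fall (adjusted p = 0.0021) without overlap. It also fell between S10 and S20, by 2.23 on the log2 scale, and the difference of the 2 falls did not pass (adjusted p = 0.41). Ccne1 and Ccne2, the E cyclins, fell by 0.77 ± 0.24 and 0.82 ± 0.23, each with overlapping groups and neither called in the fit on X36 and X44 alone. The call of Ccne1 was lost without X44 replicate 1 or 3 or X36 replicate 1 or 6, and that of Ccne2 without X44 replicate 3, which left 2 falls and 2 rises in the list. E2f3 fell by 0.79 ± 0.15 without overlap. Rbl1 (p107), a pocket protein that restrains E2F, rose from a median of 1.24 to 2.96, 2.15 and 2.07 (1.08 ± 0.21, adjusted p = 6.8e-05). Myc (−0.89) and Cks1b (0.71) had no overlap between the groups but did not pass the test (adjusted p = 0.13 and 0.073).

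Of 5 inhibitors of cyclin-dependent kinases tested, 3 rose and none fell. Cdkn2d (p19), an inhibitor of Cdk4 and Cdk6, was at 3.18, 2.56 and 2.56 in X44 and at −0.33, 0.51 and 1.81 in X36, a rise of 1.96 ± 0.21 (adjusted p = 5.1e-11). Cdkn2c (p18), of the same family, rose by 1.35 ± 0.16, and Cdkn1b (p27) by 0.90 ± 0.12, both without overlap. All 3 were called against either set of 3 X36 livers. Cdkn1a (p21) was at 5.26, 5.40 and 4.46 in X44 and 2.69 to 4.49 in X36, and its difference of 1.41 ± 0.66 did not pass (adjusted p = 0.14). In sham livers none of the 5 passed between S10 and S20, where Cdkn1a differed by 2.04 (adjusted p = 0.056).

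Most G2/M genes rose. Of 22 kinases, cyclins and regulators tested, 17 rose and 1 fell, with a median of 1.64. All 17 were also called against each set of 3 X36 livers, and 17 were called whichever library was left out. Plk1, a kinase of mitotic entry and exit (chromosome 7, 129302951 to 129313389, + strand, mm9), was at 4.95, 4.38 and 4.29 in X44 and at 0.56, 2.06 and 3.17 in X36, a 5.69-fold rise (2.51 ± 0.28, adjusted p = 1.3e-10). Every X44 liver was above every X36 liver, and the change was the largest of the 22.

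Cyclin B1 (Ccnb1) rose from 0.72, 1.51 and 2.33 at the lowest, median and highest of X36 to 4.02, 3.67 and 3.46 in X44 (2.07 ± 0.24, adjusted p = 4.6e-10). Ccnb2 rose by 1.99 ± 0.33, a call lost in the fit on X36 and X44 alone (adjusted p = 0.062). Cdk1, their partner, was at 5.29, 4.94 and 4.62 in X44 and at 2.53 to 3.99 in X36 (1.65 ± 0.27, adjusted p = 3.1e-06), and Ccna2, cyclin A2, rose by 1.73 ± 0.28. None of these 4 overlapped between the groups. Cdc25c (2.08 ± 0.19) and Cdc25b (1.83), the phosphatases that activate Cdk1, rose, and Wee1, the kinase that restrains it, was the only gene of the list to fall. Wee1 was at 2.65, 1.82 and 1.95 in X44 and 2.87 to 3.35 in X36 (−0.98 ± 0.28, adjusted p = 0.0096), a call lost without X44 replicate 2 or 3. Wee1 also differed by −0.83 between S10 and S20, without passing there (adjusted p = 0.071).

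Aurka and Aurkb, the Aurora kinases, rose by 1.78 ± 0.24 and 1.82 ± 0.25. Foxm1, a transcription factor of the late wave, was at 3.69, 3.19 and 2.85 in X44 and 0.51, 1.14 and 2.14 in X36 (1.91 ± 0.19, adjusted p = 1.5e-12). Mybl2, which encodes B-Myb, was at −2.55 to −1.97 in X44 and −3.47 to −1.35 in X36, below −1.5 in every library but X36 replicate 1, and did not pass (0.09, adjusted p = 0.66). These low values stand apart from those of Foxm1 and the other late genes given here, and the part of annotation or read counting in them was not tested. Lin9, a subunit of MuvB, did not pass (0.08, adjusted p = 0.84).

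Genes of the spindle and centrosome gave 24 rises and no fall among 29 tested, with a median of 1.58. Nusap1, which bundles spindle microtubules (chromosome 2, 119444034 to 119476980, + strand, mm9), rose from 0.06, 0.69 and 2.16 at the lowest, median and highest of X36 to 4.06, 3.72 and 3.18 in X44, or 6.22-fold (2.64 ± 0.25, adjusted p = 3.3e-13). Ckap2l (2.14 ± 0.27), Kif2c (2.12 ± 0.20), Kif22 (2.01), Kif11 (1.99) and Tpx2 (1.84) followed, motors and spindle factors. The 5 that did not pass were Kif24 (−0.18), Cep152 (−0.17), Sass6 (0.19), Numa1 (0.27) and Cenpj (0.36). Cep152, Sass6 and Cenpj act in centriole duplication, while Plk4, the kinase that starts that duplication, rose by 0.74. The CHR motif was held by 17 of 27 promoter windows of 27 spindle genes (63.0%), beside 17.9% of all windows and 12.9% of those of tested genes, and an E2F motif by 2 of the 27 (7.41%).

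Of 38 genes of the kinetochore and the spindle checkpoint, 28 rose and none fell, with a median of 0.97. The fit on X36 and X44 alone called 18. Cenpf (2.10 ± 0.18) and Cenpe (2.00 ± 0.18), large proteins of the outer kinetochore, were at the top. Cenpf moved from a median of −0.34 in X36 to 2.41, 2.05 and 1.73 in X44. Bub1, a checkpoint kinase, was at 2.59, 2.05 and 1.56 in X44 and −0.36, 0.32 and 1.15 in X36 (1.58 ± 0.17, adjusted p = 4.8e-11). Incenp (1.53 ± 0.22), Birc5 (1.59 ± 0.22) and Cdca8 (1.31), the partners of Aurora B on the inner centromere, rose alike. The 10 that did not pass lay between 0.08 (Dsn1) and 0.46 (Cenpn), and included Cenph, Cenpk, Cenpo and Cenpq of the constitutive centromere network. The CHR motif was held by 14 of 38 windows of 33 kinetochore genes (36.8%).

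Condensin and cohesin genes gave 12 rises and no fall of 20. Top2a, the topoisomerase that untangles sister chromatids, rose by 1.80 ± 0.28 and Mki67, which coats mitotic chromosomes, from 1.66, 2.31 and 3.54 in X36 to 5.09, 4.59 and 4.01 in X44 (2.02 ± 0.28, adjusted p = 6.4e-08). The subunits of condensin I and the shared core rose, Ncapd2 by 1.19, Ncapg by 1.12, Smc4 by 1.08, Ncaph by 1.05 and Smc2 by 1.00. Of the subunits of condensin II, Ncaph2 passed at 0.55 and Ncapd3 (0.04) and Ncapg2 (0.14) did not. Espl1 (separase, 1.56), Esco2 (1.48) and Cdca5 (sororin, 1.25), which open or secure cohesin, rose, and so did the cohesin subunit Rad21 (0.93). The cohesin subunits Stag2 (0.14) and Smc3 (0.27) did not pass, and Stag1 (0.42) and Smc1a (0.46) stayed below the fold limit of 0.5 with adjusted p of 0.0057 and 0.0017. The call of Ncaph2 was lost without X44 replicate 1 or X36 replicate 4.

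Of 17 genes of the anaphase-promoting complex (APC/C) and mitotic exit, 6 rose and none fell. Scaling to the same median left 4 rises, and so did the fit on X36 and X44 alone. Leaving out single libraries gave between 5 and 7. Cdc20, the mitotic activator of the APC/C, was at 5.88, 5.50 and 5.43 in X44 and 2.30, 3.45 and 4.45 in X36 (2.13 ± 0.37, adjusted p = 9.5e-06). Ube2c, its ubiquitin-conjugating enzyme, rose from a median of 2.62 to 5.05, 4.58 and 4.67 (2.22 ± 0.30, adjusted p = 6.2e-08). Ube2s rose by 1.30 and Fbxo5 (Emi1), an inhibitor, by 0.83. Among the core subunits Anapc11 (0.62) and Cdc23 (0.51) passed, and the 11 genes of the list that did not pass lay between 0.04 (Anapc4) and 0.48 (Cdc27).

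For cytokinesis, 12 of 14 genes rose and none fell, with a median of 1.94, the highest of the 26 lists drawn by their changes. Kif23, a motor of the central spindle, rose from −3.11, −1.24 and 0.24 at the lowest, median and highest of X36 to 2.28, 2.14 and 0.97 in X44 (2.40 ± 0.23, adjusted p = 1.3e-12). Kif20a (2.19 ± 0.25), Anln (2.09), Prc1 (1.98 ± 0.21), Racgap1 (1.91 ± 0.21) and Ect2 (1.84 ± 0.28) rose beside it, each without overlap. Rhoa, the GTPase that Ect2 activates, was at 6.02 to 6.08 in X44 and 5.60 to 6.24 in X36 and did not pass (0.21, adjusted p = 0.054), and Arhgef2 changed by 0.00.

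**Figure D3:**
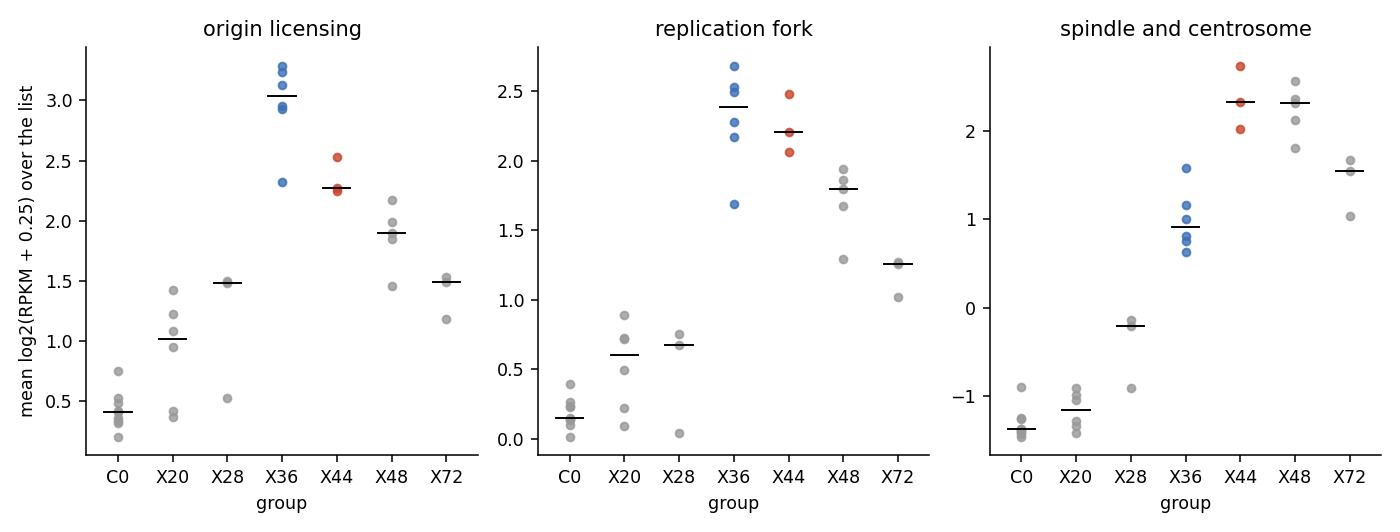
Mean log2(RPKM + 0.25) over the genes of 3 lists (vertical axes) in each liver, by group along the horizontal axis from resting livers (C0) to 72 h after PH (X72), with group medians as bars. Licensing is highest at X36 (median 3.04) and spindle genes at X44 and X48 (medians 2.33 and 2.32).

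Over the surrounding times the medians of the lists were highest at different hours. The median level of the licensing list was 0.41 in resting livers (C0), 1.48 at 28 h, 3.04 at 36 h, 2.27 at 44 h, 1.89 at 48 h and 1.49 at 72 h, on the scale of mean log2(RPKM + 0.25). That of the replication fork list was 2.39 at 36 h and 2.21 at 44 h, with overlapping livers. The spindle list went from −1.38 in C0 and −0.21 at 28 h to 0.91 at 36 h, and its levels at 44 h (2.02 to 2.74, median 2.33) and at 48 h (median 2.32) overlapped. Within X44, replicate 1 was the highest and replicate 3 the lowest in the G2/M, spindle, kinetochore, condensin, APC/C and cytokinesis lists. Of the 280 cell cycle genes tested over all of these lists, 118 rose and 21 fell between X36 and X44, and 18 passed in either direction between S10 and S20, where 10.6% of all genes passed (5.06% higher and 5.53% lower in S20). The spindle genes had a median of −0.03 in the sham pair.

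Of 17 targets of p53 tested, 5 rose and none fell, and 1 rose in the fit on X36 and X44 alone. The highest were Gtse1 (1.52 ± 0.22) and Psrc1 (1.44 ± 0.21), both of which encode proteins of the spindle microtubules. Phlda3 (1.21 ± 0.28) and Eda2r (0.94 ± 0.19) rose with overlapping groups, and Bax, a promoter of apoptosis, passed by little (0.50 ± 0.17, adjusted p = 0.027). Gtse1 and Psrc1 alone were called against either set of 3 X36 livers. Without X44 replicate 3, 8 of the 17 were called. Mdm2 (0.25) and Pmaip1 (0.05) did not pass. Cdkn1a, a target of p53 as well, is given above.

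The clock genes gave the largest changes of the comparison. Of 19 tested, 6 rose and 8 fell. Dbp (chromosome 7, 52960458 to 52965525, + strand, mm9), an output factor of the clock, was at −1.31, −1.93 and −2.22 in X44 and at 2.93, 3.85 and 4.38 in X36. Its fall was 24.8-fold (−4.63 ± 0.33, adjusted p = 9.1e-18), understated by the 0.25 added to RPKM before the fit. In sham livers Dbp stood at 4.25 to 4.54 in S10 and at −0.79, −0.15 and −1.41 in S20 (−4.69 ± 0.38), and the difference of the 2 falls did not pass (adjusted p = 0.97). Arntl (chromosome 7, 120350979 to 120457636, + strand, mm9) moved the other way, to 3.06, 2.97 and 3.06 in X44 from −1.98, −1.34 and −0.77 in X36 (3.72 ± 0.20, adjusted p = 6.2e-24). Its sham change was 3.42 ± 0.23, again with no difference past the test (adjusted p = 0.56).

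The other falls were Nr1d1 (−2.60 ± 0.55) and Nr1d2 (−2.47 ± 0.26), the REV-ERB repressors of Arntl, Per3 (−2.24 ± 0.17), Per2 (−1.84 ± 0.28), Tef (−2.19 ± 0.24), Bhlhe41 (−0.85) and Gm129 (−3.97 ± 0.39). Gm129 (Ciart) encodes a repressor of the clock and was the only gene of the list whose change differed from the sham pair past the test, −2.36 there (adjusted p = 0.045). Its promoter is shown for the E-box CACGTG, the site of the Arntl and Clock dimer, held 3 times in the 150 bases before its start at chr3:95882229-95882378 (-), GRCm38.p6, and at least once by 7.15% of all windows and by 6 of 21 windows of 16 clock genes (28.6%).
Ciart: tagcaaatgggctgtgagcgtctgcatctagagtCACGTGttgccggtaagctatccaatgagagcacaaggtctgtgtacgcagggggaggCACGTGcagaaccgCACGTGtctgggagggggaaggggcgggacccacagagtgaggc
The other rises included Npas2 (2.12 ± 0.23), Cry1 (1.51 ± 0.22), Nfil3 (1.33 ± 0.21) and Clock (0.88 ± 0.16). In the sham pair 4 clock genes rose and 9 fell. Over all genes, 103 fell in both pairs, of 469 that fell between X36 and X44 and 851 that fell between S10 and S20. In the same way 118 rose in both, of 997 and 779. In opposite directions, 71 rose in the PH pair and fell in the sham pair, and 21 fell in the PH pair and rose in the sham pair. The shared calls are thus 21.96% of the falls and 11.84% of the rises of the PH pair. Of all genes tested, 5.53% fell and 5.06% rose in the sham pair.

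**Figure D4:**
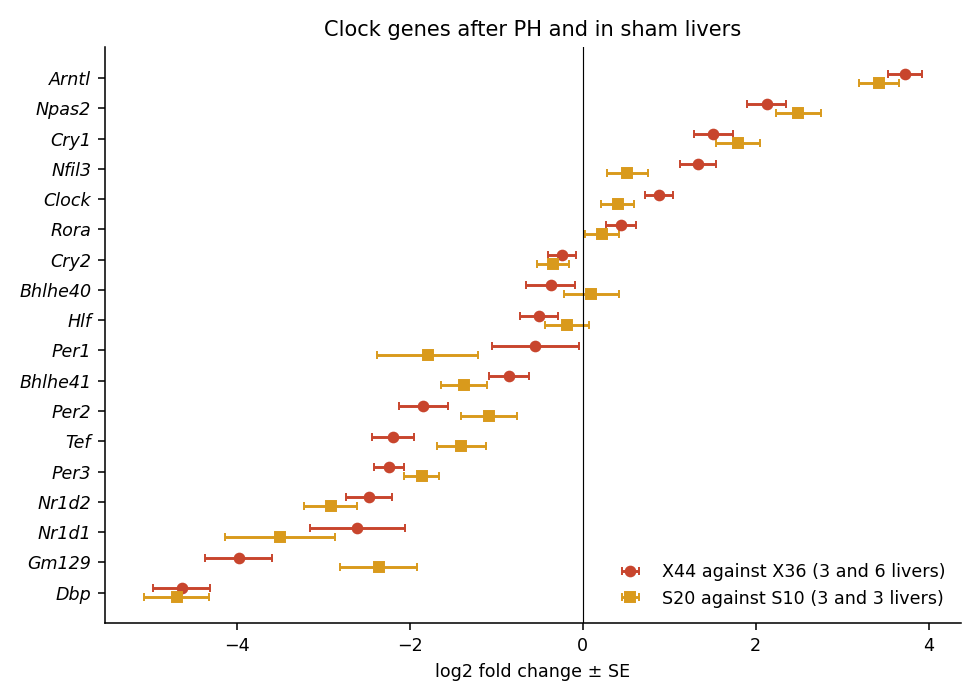
Log2 fold change with its SE (horizontal axis) of 18 clock genes (rows) for X44 against X36 (red circles) and S20 against S10 (orange squares). Arntl and Dbp sit at the ends of both series, near 3.72 and −4.63, and the intervals of most other genes lie close together.

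Genes of glucose metabolism changed in both directions. Of 17 tested, 3 rose and 4 fell. Igfbp1, a secreted binder of insulin-like growth factors that insulin represses, was at 4.82, 5.91 and 6.24 in X44 and at 2.42, 2.63 and 4.54 in X36, a rise of 2.50 ± 0.61 (adjusted p = 0.0021). G6pc, the last enzyme of glucose release, rose from 2.41, 3.74 and 5.10 in X36 to 5.49, 5.47 and 6.59 (2.14 ± 0.45, adjusted p = 0.00034), a call lost in the fit on X36 and X44 alone (adjusted p = 0.053). Irs2, an adaptor of the insulin receptor, rose by 1.42 ± 0.40, a call lost without X44 replicate 3. These 3 genes did not overlap between the groups.

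In sham livers Igfbp1 went the other way, at 5.83 to 6.09 in S10 and 3.46 to 4.68 in S20. Gys2, the liver glycogen synthase, fell by 1.91 ± 0.20 (adjusted p = 2.1e-11), with 5.34, 4.77 and 4.29 in X44 and 6.22 to 7.23 in X36. Slc2a2 (−1.08 ± 0.25), the glucose transporter of the hepatocyte, and Slc37a4 (−0.84 ± 0.20), which carries glucose 6-phosphate to G6pc, fell without overlap. Pck1, the first committed enzyme of glucose production, did not pass (−0.49 ± 0.35, adjusted p = 0.39).

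Of 19 genes of fatty acid oxidation and ketogenesis, 8 fell, none rose and 11 did not pass, with a median of −0.69. From S10 to S20 the list's median was −0.38, with 4 genes called lower and none higher. The difference of the 2 changes passed for 1 gene higher and 1 lower. Of the 8 falls, 4 were called against both sets of 3 X36 livers, and the fit on X36 and X44 alone called 4. Ehhadh (−1.54 ± 0.33), of the peroxisomal pathway, Ppara (−1.05 ± 0.31), the regulator of the pathway, and Cpt1a (−1.02 ± 0.21), which admits fatty acids to mitochondria, fell without overlap. Cpt1a was at 6.29, 6.42 and 5.42 in X44 and 6.78 to 7.44 in X36. Acot1 also fell (−1.59 ± 0.47), but it has near-identical neighbours, Acot2 and Acot3, that may share its reads. The number of falls was 3 without X44 replicate 3 and 5 without X44 replicate 1. Fgf21, a fasting hormone, ranged from −2.56 to 0.31 in X44 and did not pass (−1.59 ± 0.64, adjusted p = 0.084), nor did Pdk4 (1.30 ± 0.61, adjusted p = 0.15), which restrains glucose oxidation. Ppara lost its call without X44 replicate 3.

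Few genes of fat and cholesterol synthesis passed, and their counts are near the share of all genes tested, 6.48% called higher and 3.05% lower. Of 15 fatty acid synthesis genes, Fads2, a desaturase, alone passed, at 7.53, 7.44 and 7.04 in X44 and 7.91 to 8.91 in X36 (−1.14 ± 0.22, adjusted p = 9.7e-05), and the list's median was −0.49. Without X36 replicate 2, or after median scaling, 2 and 3 genes of this list were called lower. Fasn, fatty acid synthase, did not pass (−0.78 ± 0.38, adjusted p = 0.16). Of 23 genes of cholesterol synthesis and uptake, Hsd17b7 alone passed (−1.09 ± 0.29), a call lost in the fit on X36 and X44 alone. From S10 to S20 the same lists had 7 and 11 genes called higher and none lower, with medians of 0.56 and 1.38.

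For bile acids, 3 of 14 genes fell and none rose. Cyp7a1, the rate-limiting enzyme of their synthesis, was at 3.82, 2.33 and 2.98 in X44 and 4.36, 4.86 and 5.33 in X36 (−1.74 ± 0.60, adjusted p = 0.035), and Cyp8b1 fell by 1.76 ± 0.55 with overlapping groups. Both calls were lost without X36 replicate 4 or 6 or X44 replicate 3, that of Cyp7a1 also without X44 replicate 2 and that of Cyp8b1 without X44 replicate 1. Abcb4, the canalicular exporter of phospholipid, fell by 1.08 ± 0.17 (adjusted p = 7.6e-07) and kept its call in each of these cases. Of the 3 falls among bile acid genes, 1 was called against both sets of 3 X36 livers. Of 16 genes of the urea cycle and amino acid breakdown, 5 fell and 1 rose. Both sets of 3 X36 livers called 1 of the 5 falls and not the rise. Tdo2, which opens the breakdown of tryptophan, was at 6.30, 6.59 and 6.14 in X44 and 7.09 to 8.08 in X36 (−1.35 ± 0.22, adjusted p = 2.8e-06), Cps1, the entry enzyme of the urea cycle, fell by 0.82 ± 0.20 and Gldc, of glycine cleavage, rose by 0.73 ± 0.18. Cth, which makes cysteine, fell from 7.38 to 8.10 in X36 to 6.78, 6.47 and 7.02 in X44 (−0.86 ± 0.25, adjusted p = 0.0097, lost without X44 replicate 2) and rose by 1.46 between S10 and S20. Without X44 replicate 2 or 3 the falls numbered 3, and the fit on X36 and X44 alone called 4 lower and none higher.

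Of 15 cytochrome P450 genes, 4 fell and 1 rose, and 2 fell without X44 replicate 2. Both sets of 3 X36 livers called 2 of the 4 falls and not the rise. The fit on X36 and X44 alone called 1 lower and none higher. Cyp3a25 was at 6.77, 6.62 and 6.96 in X44 and 7.62 to 8.25 in X36 (−1.20 ± 0.24, adjusted p = 0.00012) and Cyp2a5 fell by 1.60 ± 0.46, both from families with similar copies. The call of Cyp2a5 was lost without X44 replicate 2 or 3, and that of Cyp2c70 (1.13 ± 0.36), the one gene to rise, without X44 replicate 3 or X36 replicate 6. Among 17 plasma proteins the 3 chains of fibrinogen alone rose, Fga by 0.84 ± 0.19, Fgg by 0.84 ± 0.20 and Fgb by 0.68 ± 0.20. Fga was at 12.19, 12.30 and 12.32 in X44 and 11.02 to 11.84 in X36. In the sham pair all 3 fell, Fga from 12.94 to 13.02 in S10 to 11.50 to 11.67 in S20. Fgb lost its call without X44 replicate 3.

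**Figure D5:**
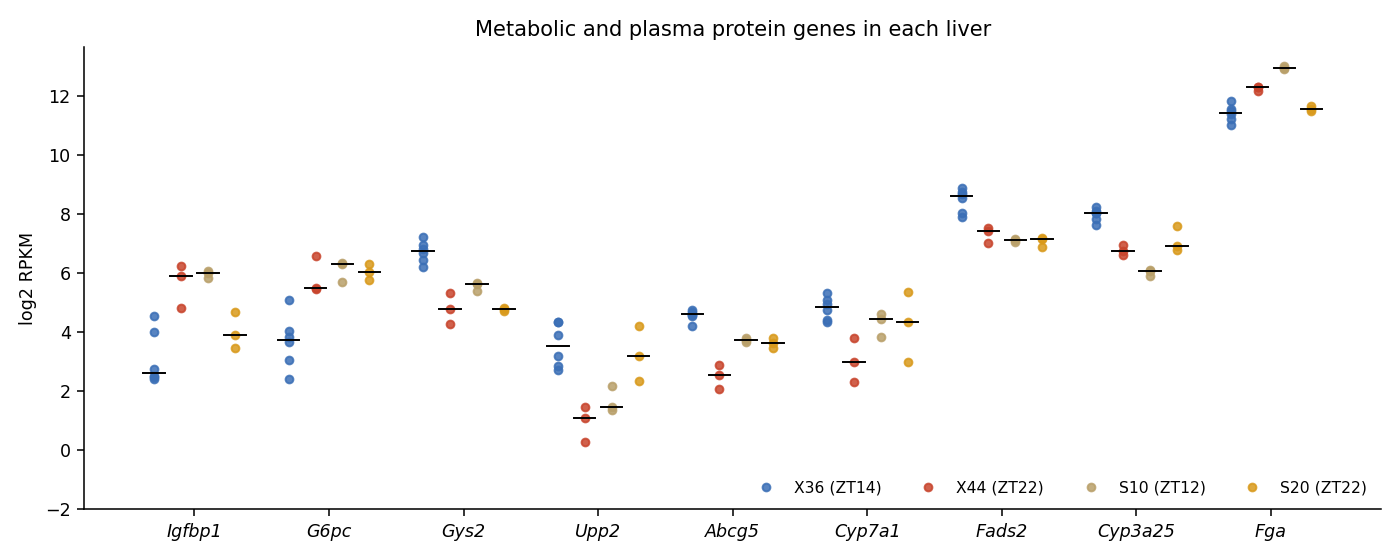
Log2 RPKM (vertical axis) of 9 metabolic and plasma protein genes (horizontal axis) in each liver of X36, X44, S10 and S20, with group medians as bars. Igfbp1 and Fga are higher in X44 than in X36 and lower in S20 than in S10, and Upp2 and Cyp3a25 show the reverse.

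Among stress genes, 5 of 19 genes of the response to unfolded protein in the endoplasmic reticulum rose and none fell, with a median of 0.54. From S10 to S20 the list's median was −0.49, with 2 genes called lower and none higher. The difference of the 2 changes passed for 10 genes, each toward a higher value in the PH pair. Sdf2l1, a chaperone cofactor, was at 5.59, 5.42 and 6.17 in X44 and 4.23 to 4.70 in X36 (1.28 ± 0.36, adjusted p = 0.0081). Hyou1 (1.04 ± 0.36), Pdia4 (0.87 ± 0.27), Pdia6 and Calr, all chaperones or folding enzymes, also passed, although Hyou1 lost its call without any 1 of 7 libraries. Hspa5 (BiP) did not overlap between the groups but did not pass (0.84 ± 0.33, adjusted p = 0.074), and Asns (−0.80) and Ddit3 (0.12), of the arm that answers amino acid stress, did not pass. Sdf2l1 was not called without X44 replicate 3, where 2 genes of the list remained. The fit on X36 and X44 alone called 10 of the list. Heat shock and cold-inducible genes had 1 call of 16, Rbm3, a cold-inducible RNA-binding protein, at −0.68, lost without X44 replicate 2 or 3 or X36 replicate 3 or 6 and in the fit on X36 and X44 alone. Of 22 ribosome biogenesis genes Nop56 (−0.69 ± 0.18) and Nop2 (−0.66 ± 0.17), both of ribosomal RNA modification, fell, 4 fell without X36 replicate 3 and 1 fell in the fit on X36 and X44 alone. After scaling to the same median 5 heat shock and 5 ribosome biogenesis genes were called lower. Over all genes tested 3.05% were called lower without that scaling, so 1 of 16 and 2 of 22 are too few to be read as a result.

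Markers of other cell types did not pass in most lists. Of all genes tested 9.52% passed in either direction, so no call among 6 to 11 markers is near that share. None of 6 erythroid, 11 macrophage, 8 neutrophil, 8 lymphocyte and 10 endothelial markers tested passed, and 1 of 10 stellate markers (Pdgfrb, 0.66 ± 0.21) and 1 of 5 bile duct markers (Sox9, 0.92 ± 0.24) rose, both with overlapping groups and both lost without X44 replicate 2 and in the fit on X36 and X44 alone. Sox9 rose by 1.06 in the sham pair as well. The summed RPKM of the stellate markers was 85.2 to 105.4 in X44 and 34.9 to 140.5 in X36, that of the macrophage markers 50.2 to 70.7 and 13.5 to 109.4, and that of the endothelial markers 22.1 to 26.2 and 7.77 to 28.8. For pancreas, muscle and fat, 1 marker each was above the detection limit and none passed. Against X36 replicates 4 to 6 alone, 6 endothelial, 6 stellate, 1 macrophage, 2 lymphocyte and 1 bile duct markers were called higher in X44. None of these lists had a call against replicates 1 to 3. The median log2 fold change of the macrophage markers was −0.43 against replicates 1 to 3 and 1.00 against replicates 4 to 6. Without X36 replicate 2, 5 stellate markers were called. These markers thus differ between the 2 sets of X36 livers, and their part in the other results was not tested.

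Of the 15 largest rises and 15 largest falls, 10 and 8 are genes in none of the lists. Loxl4 (2.47 ± 0.38), Ndrg1 (2.27 ± 0.31), Ypel2 (2.26 ± 0.24) and Pnrc1 (2.35 ± 0.20) rose, and they rose by 2.27, 2.49, 1.51 and 1.43 between S10 and S20, with a difference past the test for Pnrc1 alone (adjusted p = 0.029). Others moved in PH livers with a difference from the sham pair past the test. Ccng2, a cyclin known from cells that leave the cycle, was at 1.95, 1.85 and 1.78 in X44 and −1.49, −1.14 and −0.54 in X36 (2.42 ± 0.24, adjusted p = 2.1e-12), with 0.20 in the sham pair. Pif1, a DNA helicase, rose by 2.42 ± 0.17, Mxd3, a partner of Max, by 2.43 ± 0.23, Map4k4, a kinase, by 2.25 ± 0.22, and the transcripts 9530077C05Rik and D17H6S56E-5 by 2.74 ± 0.28 and 2.51 ± 0.37. D17H6S56E-5 was at 8.83, 7.89 and 7.63 in X44 and 4.89 to 6.78 in X36.

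On the side of the falls, Abcg5, which exports sterols into bile, was at 2.06, 2.88 and 2.56 in X44 and 4.2, 4.61 and 4.76 in X36 (−2.02 ± 0.23, adjusted p = 3.3e-10), with −0.09 in the sham pair. Upp2, a uridine phosphorylase, fell by 2.46 ± 0.42 and rose by 1.52 between S10 and S20. A930033H14Rik fell by 1.91 ± 0.28 (−1.55 in the sham pair). Acot2 (−2.23 ± 0.45) and Acot3 (−2.14 ± 0.53), thioesterases of fatty acyl-CoA, fell with the caution on shared reads given for Acot1. The noncoding Gm15441 (chromosome 3, 96359688 to 96370724, - strand, mm9), which overlaps Txnip on the other strand, fell by 2.95 ± 0.55, and Gm14097 (chromosome 2, 132520168 to 132524259, - strand), which overlaps 1110034G24Rik, by 2.35 ± 0.42. The counting used the transcribed strand, so that reads of such partners are kept apart as far as the library preparation marks strand.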

How the data were processed

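Poly(A) RNA of individual livers was sequenced by a stranded protocol. The authors trimmed the reads with Cutadapt and prinseq-lite, mapped them to mm9 with TopHat2 2.0.13, Bowtie2 and SAMtools 0.1.19, and assigned them with featureCounts to Ensembl genes on the transcribed strand, each read divided among its positions. The deposited values are log2 RPKM, calculated by the authors, with genes at 0 reads listed at the floor of −14.29. RPKM is relative to the total of a library, and near-identical copies of a gene may have exchanged reads.

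Of 84 columns, 80 match a label, and 4 were not used. Genes above −1.5 (log2 RPKM) in at least 1 library were kept (15396), which is about 15.0 reads on a 2 kb transcript at the lowest depth of X36 and X44. Depth was estimated from the step of the lowest values. Group means of log2(RPKM + 0.25) were fitted with limma 3.58.1 in R 4.3.3, all 19 groups in 1 model. The added 0.25 understates the change of low genes. P-values are two-sided and adjusted by Benjamini-Hochberg over all genes. P-values measure the spread between individual livers within a group, estimated for each gene over all 19 groups. The paper's mice were operated on and killed in sets of 3, so the 3 X44 livers hold no spread between such sets. The difference between the PH and sham changes was tested in the same model, added after seeing the data (2540 genes, 16.5%, passed). The method was tested on simulated data with independent noise for each library. The simulation held no difference between sets of livers within a group, so it does not cover such differences. Promoter motifs were searched in RefSeq windows of 250 bases before to 50 after the start, matched by symbol or synonym. Fewer than 80% of the called genes had a window (74.7% of those higher and 72.2% of those lower), so the comparison of all called genes is void and is not given. Python 3.11.15, numpy 2.4.6, pandas 2.3.3 and matplotlib 3.10.9 were used.

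The named genes are anchor genes, the 2 highest and 2 lowest changes of each list, and the 15 largest rises and 15 largest falls among genes called without overlap and with a mean above 0 in X44 or X36. Further members of a list are named with their values to describe it and were chosen after these were seen. Some genes the rule selects are not reported here. The members and the lists were chosen with earlier results of these data known. Alternatives were other pseudocounts (0.1 and 1), filters, scaling, variance models, fits of the 2 groups alone, X36 replicates 1 to 3 or 4 to 6 alone and leaving out each library.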

Additional observations from a re-analysis of the deposited data

Results flagged for a closer look

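Among 142 named genes, 11 had an X36 liver far from the other 5 by Dixon's criterion, which chance meets in about 1 of 20 groups. In 10 of the 11 the liver was X36 replicate 2. It was below the others for Mcm5 (3.37), Cdc6 (0.42), Timeless (0.90), Uhrf1 (3.09), Lin9 (0.30), Hsd17b7 (3.42), Fdps (5.73) and Abcg5 (4.2), and above them for Anapc13 (5.69) and Cyp2a5 (8.58), all as log2 RPKM. The other value was Orc3 in X36 replicate 5 (1.27). Without X36 replicate 2, 1677 genes were called, among them 1364 of the 1466 called with it.

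The changes of 6 named genes had opposite signs in the PH pair and the sham pair, passed the test in both, and differed past the test of the difference itself. The difference (change of X44 against X36 minus change of S20 against S10, log2) was 4.45 for Igfbp1, 2.24 for Fga and 1.92 for Fgg, and −3.98 for Upp2, −2.31 for Cth and −2.25 for Cyp3a25, with adjusted p of 0.00042 (Igfbp1) or less. Fgb, named after its values were seen, did the same (adjusted p = 3.8e-06). S10 livers preceded the offer of food and X36 livers followed it by 2 h, and the part of feeding in these differences cannot be told apart from that of the surgery and of the hours since it.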

How the results depend on the processing

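No named gene that passed the test changed sign under any alternative. Of the 51 named genes that did not pass, 19 changed sign under at least 1 setting, with values between −0.55 and 0.64. Beside the 1466 genes called, the fit on X36 and X44 alone called 858 (592 higher and 266 lower), 818 of them among the 1466. X36 replicates 4 to 6 alone gave 2223 (1713 higher), 1243 of them among the 1466 in the same direction, and 773 of the 1466 were called against replicates 1 to 3 and 4 to 6 alike. Scaling to the same median gave 639 higher and 834 lower. Leaving out single libraries gave between 1059 (without X44 replicate 1) and 1677 (without X36 replicate 2) genes, with 709 to 1224 higher and 350 to 478 lower, and between 1250 and 1686 for S20 against S10, where 1630 were called. For X36 replicates 1 to 3 against 4 to 6, 538 genes passed at a pseudocount of 1, beside 1036. With the replicate number as a block, limma called 0 genes (0 higher and 0 lower), and 2619 had an unadjusted p below 0.05, beside 4265 without the block. That block leaves 3 livers a group. Deviations of same-numbered livers correlated at 0.12, −0.12 and 0.09, and those of other pairs at −0.22 to 0.14. These values cannot decide whether the numbers pair the livers. Other pseudocounts, the filters and a single prior variance gave between 1002 and 1542 calls. The cause of these shifts was not tested. Depth limits what can be said of genes near the detection limit.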
